A study of Mus musculus with 6 samples.

Results

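The 10 genes described here are markers used to tell apart subsets of fibroblasts and mesenchymal progenitors, namely Pdgfra, Pdgfrb, Cd34, Thy1, Ly6a, Dpp4, Pi16, Vcam1, Eng and S100a4. They were taken by symbol from a deposited table of read counts for 46095 genes. The choice of symbols used no measured value, although it was made with earlier results of these data in view. All 10 symbols were found.

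The libraries come from primary cultures of nucleus pulposus, the soft core of the intervertebral disc, dissected from mice of 8 weeks and grown to passage 2. There are 2 libraries for each of 3 genotypes of Chsy3, an enzyme that extends chondroitin sulfate chains: wild type, Chsy3 heterozygous and Chsy3KO, here called knockout. Every group is labelled male. The sources used here do not give the strain, the altered part of the gene, or whether cells of several mice were pooled. Nor do they say if both libraries of a genotype are from separate mice, so the tests measure only the spread between these libraries, which may be technical.

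Total counts ranged from 29622117 to 33899611 per library. Chsy3 had 284 counts in each wild-type library, 167 and 197 with 1 allele lost, and 118 and 76 in knockout. The heterozygous libraries stand apart: the Y-linked genes Ddx3y, Uty, Kdm5d and Eif2s3y had 0 counts in both, against means of 8.06 to 31.0 CPM (counts scaled by library size) in wild type and knockout. Xist, the RNA that silences an X chromosome in female cells, averaged 658 CPM in wild type, 652 in knockout and 1076 in heterozygous, so all 3 groups labelled male held it. Ifi202b, an interferon-inducible gene singled out after its values were seen, had 0 CPM in wild type and knockout and 35.3 CPM in heterozygous. Genotype and these differences cannot be told apart in any comparison that uses the heterozygous libraries. Wild type and knockout held both Xist and the Y-linked RNAs, so the label male does not settle the sex of their cells either. Of 12 nucleus pulposus and notochord markers, T, Shh and Noto had 0 counts in all 6 libraries and Acan, which encodes aggrecan, averaged at most 0.118 CPM in a genotype. Others were present: Sox9 averaged 15.99, 57.5 and 22.7 CPM in wild type, heterozygous and knockout, Col2a1 22.8, 5.65 and 21.3 CPM, Krt19 15.7, 0.759 and 2.68 CPM, and Cd24a 13.3, 6.41 and 10.2 CPM. The list summed to 59.0 to 76.3 CPM. Macrophage genes were abundant, with the 15 markers of a fixed list summing to 14537 to 17679 CPM.

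Fibroblasts are the matrix-building cells of connective tissue, and no single surface protein defines them. The receptors for platelet-derived growth factor (PDGF) mark most mesenchymal cells. CD34, Sca-1 (the product of Ly6a), DPP4 and PI16 mark fibroblasts of the outer layer of vessels and of the fascia, which are regarded as progenitor-like. THY1, endoglin and VCAM1 are used to sort stromal and progenitor cells from bone marrow and other tissues. These proteins are not confined to fibroblasts: endothelial cells carry CD34, endoglin and Sca-1, and macrophages can express S100a4, Vcam1 and Eng.

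The markers did not move as a block. Pdgfra, Cd34 and Vcam1 were highest in heterozygous, intermediate in knockout and lowest in wild type. Ly6a, Eng and S100a4 were highest in knockout, and Thy1 fell there to 44.8% of its wild-type level. Pdgfrb varied least, by 1.29-fold between its highest and lowest genotype means. Dpp4 and Pi16, the pair most closely tied to the progenitor-like subset, were the lowest of the 10, with means of at most 0.433 and 2.11 CPM.

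In knockout against wild type, 9 of the 10 genes passed the threshold, 7 higher and 2 lower (edgeR quasi-likelihood test, adjusted p under 0.05), where 38% of all 16061 tested genes passed, 19.2% higher and 18.9% lower. The number of markers was also 9 in a fit of only the 4 wild-type and knockout libraries. In heterozygous against wild type 7 passed, 5 higher and 2 lower, where 38.9% of all tested genes passed, 19.2% higher and 19.7% lower. In knockout against heterozygous all 10 passed, 5 in each direction, beside 37.1% of all tested genes, 19.1% higher and 17.9% lower. The median log2 fold change over the 10 genes was 0.48, 0.051 and -0.0087 in these comparisons, against -0.0031, -0.0029 and 0.012 over all tested genes. All 10 genes passed the filter on low counts, Dpp4 only through the knockout libraries, so its difference is in part a condition of its being tested. Below, a gene is said to rise or fall only where it passed this threshold. The comparisons share libraries, and their counts are therefore not independent of each other.

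**Figure D1:**
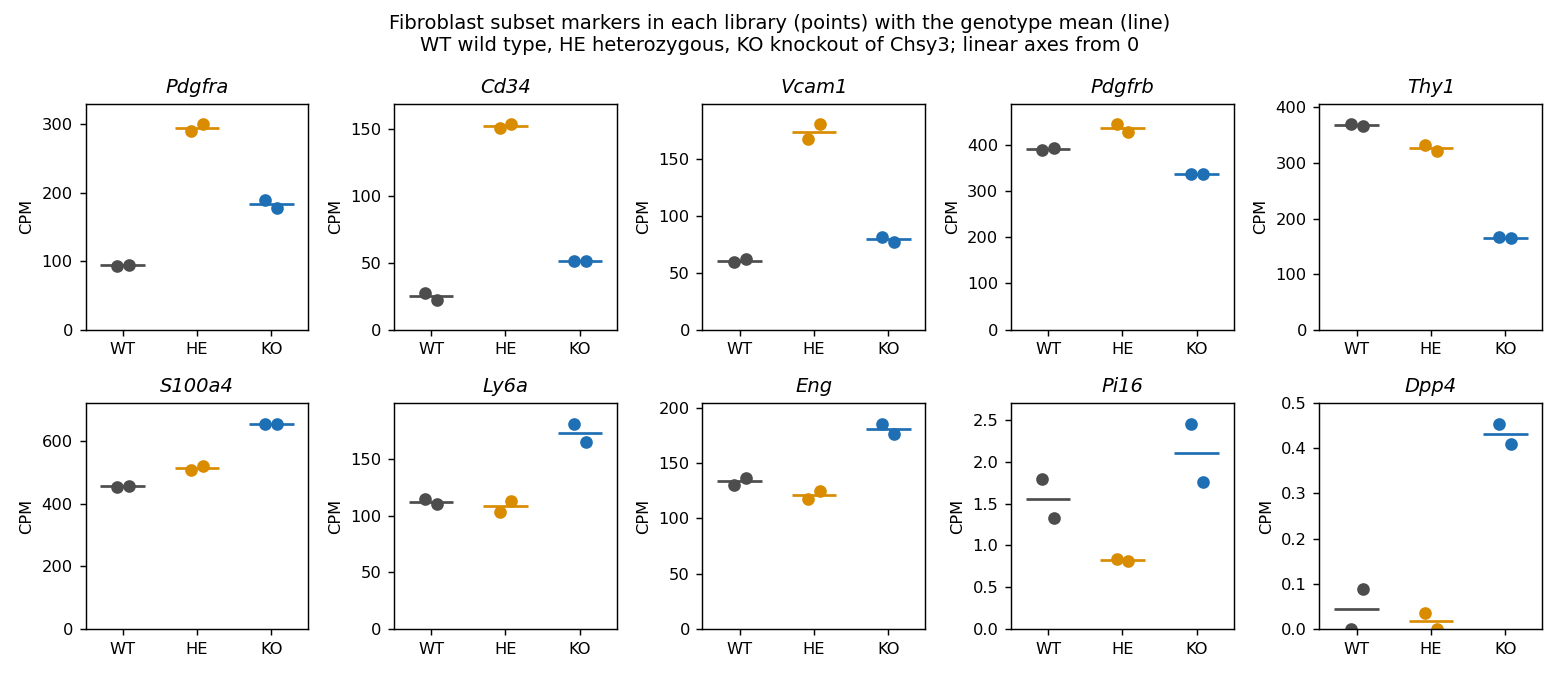
CPM of the 10 markers (vertical axes, linear, each from 0) in the wild-type (WT), heterozygous (HE) and knockout (KO) libraries; points are libraries and lines are genotype means. Pdgfra, Cd34 and Vcam1 peak in heterozygous, and Ly6a, Eng and S100a4 in knockout, while Dpp4 stays below 0.5 CPM everywhere.

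Sequence upstream of the start site is shown for Pdgfra and Cd34, which share the same order of genotypes, and for S100a4, which had the highest level per kilobase of exon among the 10 genes. Each run holds the 250 bases before the start in RefSeq (GRCm38.p6), 5′ to 3′ on the gene's strand, which is the forward strand for all of them. The windows lie at chr5:75152001-75152250, chr1:194938571-194938820 and chr3:90603520-90603769. Capitals mark a TATAAA match.
Pdgfra: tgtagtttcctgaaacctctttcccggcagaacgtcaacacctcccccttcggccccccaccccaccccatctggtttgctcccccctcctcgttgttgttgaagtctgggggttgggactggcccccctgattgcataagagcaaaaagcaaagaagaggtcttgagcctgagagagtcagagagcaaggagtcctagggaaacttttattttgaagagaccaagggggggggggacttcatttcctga
Cd34: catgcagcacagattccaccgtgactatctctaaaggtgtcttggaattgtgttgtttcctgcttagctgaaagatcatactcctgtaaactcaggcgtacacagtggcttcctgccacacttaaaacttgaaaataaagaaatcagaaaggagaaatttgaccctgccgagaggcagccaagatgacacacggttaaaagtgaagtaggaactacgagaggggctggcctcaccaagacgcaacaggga
S100a4: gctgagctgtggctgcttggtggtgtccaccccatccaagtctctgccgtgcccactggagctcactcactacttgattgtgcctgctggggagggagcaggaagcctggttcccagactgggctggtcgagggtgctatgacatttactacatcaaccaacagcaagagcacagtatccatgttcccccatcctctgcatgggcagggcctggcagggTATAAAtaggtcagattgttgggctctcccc
The windows were searched on both strands for the letters TATAAA of the TATA box, for CCAAT, which is known as a box of the same name, for GGGCGG as the GC box and for CATTCC as the TEAD motif. Of 32851 windows of this length, 12.4% hold the TATA box letters, 33.8% the CCAAT box, 32.7% the GC box and 12.6% the TEAD motif. S100a4 holds TATAAA, which begins 31 bases before its start and overlaps no other match, and none of these letters are in the Pdgfra and Cd34 windows. The share of G and C was 54.4% for Pdgfra, 46.4% for Cd34 and 57.2% for S100a4, beside a median of 52.4% over all windows. These matches describe the sequence and were not set against the expression values. The windows of the other 7 genes are not shown.

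The receptors PDGFRA and PDGFRB are tyrosine kinases that drive growth and migration of mesenchymal cells. Pdgfra (ENSMUSG00000029231, GRCm38 chromosome 5, 75152292 to 75198215) had 3180 and 3214 counts in wild type, 8357 and 9548 in heterozygous, and 6244 and 6048 in knockout. Its level was 93.4 and 94.5 CPM in wild type, 290 and 300.2 CPM in heterozygous, and 189 and 177 CPM in knockout, so the 3 genotypes did not overlap. Its exons overlap those of the antisense gene Gm42802 by 456 bases in GENCODE M21, and the strand setting of the counting is not given. The deposited counts hold no row under the symbol Gm42802. The heterozygous mean was 3.14-fold that of wild type (log2 1.65 ± 0.04, SE, edgeR, adjusted p = 6.9e-33), and the knockout mean was 1.95-fold that of wild type (log2 0.96 ± 0.04, edgeR, adjusted p = 2.74e-24). Knockout lay below heterozygous, at 62.2% of it (edgeR, adjusted p = 6.67e-20). In bulk cultures, a change in the share of cells that carry a transcript and a change in its amount per cell cannot be told apart, here or for any gene that follows.

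Pdgfrb (ENSMUSG00000024620, GRCm38 chromosome 18, 61045150 to 61085061) had 13240 and 13412 counts in wild type, 12860 and 13637 in heterozygous, and 11162 and 11557 in knockout. This is 389 and 395 CPM, 446 and 429 CPM, and 339 and 339 CPM in the same order, again with no overlap. Heterozygous was at 111.6% of wild type (log2 0.16 ± 0.03, edgeR, adjusted p = 9.06e-06) and knockout at 86.4% of wild type (log2 -0.21 ± 0.03, edgeR, adjusted p = 3.18e-08). The libraries of a genotype lay close together, with SDs of 0.126 to 12.1 CPM, and the differences were small beside those of Pdgfra. Pericytes, the contractile cells around small vessels, also carry PDGFRB. The summed level of 11 pericyte and mural markers was 354 to 360 CPM in wild type, 471 to 477 CPM in heterozygous and 281 to 284 CPM in knockout. That order rests on Ndufa4l2, which averaged 80.3, 271 and 128 CPM in wild type, heterozygous and knockout. Without it, a choice made after seeing the data, the other 10 summed to 275 to 279 CPM, 199 to 206 CPM and 154 to 156 CPM in the same order, highest in wild type. Cspg4, which encodes the pericyte proteoglycan NG2, fell from 204.5 CPM to 119 in heterozygous and 90.0 in knockout. It supplied most of this second sum, whose order rests on it in turn. Kcnj8 and Higd1b averaged at most 0.0802 and 0.0294 CPM. The part of such cells in the Pdgfrb result was not tested.

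The balance of the 2 receptors differed between genotypes within each library, where scaling between libraries plays no part. Per kilobase of exon, the ratio of Pdgfra to Pdgfrb counts was 0.131 and 0.131 in wild type, 0.355 and 0.383 in heterozygous, and 0.306 and 0.286 in knockout. The wild-type libraries lay below all others. Pdgfrb thus exceeded Pdgfra per kilobase in all 6 libraries.

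The ligands of these receptors went different ways. Pdgfa, a ligand of PDGFRA, fell by 0.76 on the log2 scale in knockout and by 0.63 in heterozygous against wild type (34.0, 21.9 and 20.1 CPM in wild type, heterozygous and knockout). Pdgfb, which binds both receptors, fell by 0.77 in knockout from 18.6 CPM, and its heterozygous mean was 15.7 CPM, not past the threshold. Pdgfd, a ligand of PDGFRB, followed the order of Pdgfra, from 20.4 CPM in wild type to 40.0 in the heterozygous libraries, and was higher in heterozygous by 0.97 log2 and in knockout by 0.30. Pdgfrl, a receptor-like gene, rose by 0.80 log2 in heterozygous and fell by 0.63 in knockout. Pik3r1, a subunit of the PI3 kinase that the receptors recruit, rose 1.09 log2 in heterozygous and 0.36 in knockout. In a list of 17 ligands and receptor-proximal genes, 5 were higher and 8 lower in knockout than in wild type (median log2 -0.05). In heterozygous 7 were higher and 5 lower than in wild type (median log2 0.05). Over all tested genes, 38% and 38.9% were called in these comparisons.

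CD34 is a heavily glycosylated sialomucin of blood progenitors, endothelium and many tissue fibroblasts. Cd34 (ENSMUSG00000016494, GRCm38 chromosome 1, 194938819 to 194961279) had 932 and 760 counts in wild type, 4349 and 4898 in heterozygous, and 1697 and 1756 in knockout. On the CPM scale it lay at 27.4 and 22.4 in wild type, 151 and 154 in heterozygous, and 51.5 and 51.5 in knockout. These genotypes did not overlap, and the spread was widest in wild type. Among the 9 markers other than Dpp4, Cd34 had the largest range of means, 6.13-fold between heterozygous and wild type (log2 2.61 ± 0.06, SE, edgeR, adjusted p = 4.15e-32). It was 2.07-fold higher in knockout than in wild type (log2 1.05 ± 0.07, edgeR, adjusted p = 2.35e-17) and 2.96-fold higher in heterozygous than in knockout (edgeR, adjusted p = 3.78e-25). Its relative Podxl was near absent, at a mean of at most 0.456 CPM, while Podxl2 rose by 0.62 log2 in heterozygous (5.13 to 7.89 CPM).

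THY1, or CD90, is a small glycoprotein held in the membrane by a lipid anchor and is a common marker of cultured stromal cells, T cells and neurons. Thy1 (ENSMUSG00000032011, GRCm38 chromosome 9, 44043384 to 44048579) had 12591 and 12480 counts in wild type, 9577 and 10257 in heterozygous, and 5477 and 5607 in knockout. The levels were 370 and 367 CPM, 332 and 322 CPM, and 166 and 164 CPM. Both knockout libraries thus lay far below the other 4. The knockout mean was 44.8% of wild type (log2 -1.16 ± 0.03, SE, edgeR, adjusted p = 1.51e-30) and 50.5% of heterozygous (edgeR, adjusted p = 1.03e-27). Heterozygous was at 88.8% of wild type, a small decrease that also passed (edgeR, adjusted p = 8.17e-06). Of the T and B cell genes, Cd3e, Cd3g, Cd8a and Ms4a1 had 0 counts in all 6 libraries, as did the neuronal gene Rbfox3. Other such genes were present. Cd4 had 10 and 4 counts in wild type, 50 and 53 in heterozygous, and 1 and 13 in knockout. The neuronal gene Tubb3 lay at 7.76 to 10.9 CPM over the libraries. The Schwann cell genes Sox10 and Ngfr fell in knockout, from means of 1.41 and 6.996 CPM in wild type to 0.0293 and 0.045 CPM, and their part in the Thy1 decrease was not tested.

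Sca-1, the product of Ly6a, is a lipid-anchored protein used to sort mouse progenitors, and its gene responds to interferon. Ly6a (ENSMUSG00000075602, GRCm38 chromosome 15, 74994877 to 74998031) had 3902 and 3758 counts in wild type, 2979 and 3604 in heterozygous, and 5989 and 5628 in knockout. This gives 115 and 111 CPM in wild type, 103 and 113 CPM in heterozygous, and 182 and 165 CPM in knockout. The wild-type and heterozygous libraries overlapped, and the knockout libraries lay above both. Knockout was 1.54-fold above wild type (log2 0.62 ± 0.05, SE, edgeR, adjusted p = 3.6e-15) and 1.60-fold above heterozygous (edgeR, adjusted p = 4.38e-16). The heterozygous difference from wild type was -0.06 ± 0.05 log2 and did not pass (edgeR, adjusted p = 0.385).

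Genes of the same family help to place this value, since reads of alike copies may be split or shared by the counting and the values of the family are uncertain to that extent. Ly6c1, a marker of monocytes and of some fibroblasts and endothelium, rose in both mutants, by 1.17 log2 in knockout and 0.49 in heterozygous (24.2, 34.0 and 54.5 CPM in wild type, heterozygous and knockout). Ly6e, a broadly expressed interferon-inducible gene, was at 473 CPM in wild type and rose by 0.41 log2 in knockout, whereas it fell by 0.98 in heterozygous (627 and 240 CPM). Ly6c2 and Ly6i averaged at most 0.217 and 0.162 CPM, and Ly6g had 0 counts. Knockout was the highest genotype for Ly6a, Ly6c1 and Ly6e alike, whereas heterozygous ranked differently among them.

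**Figure D2:**
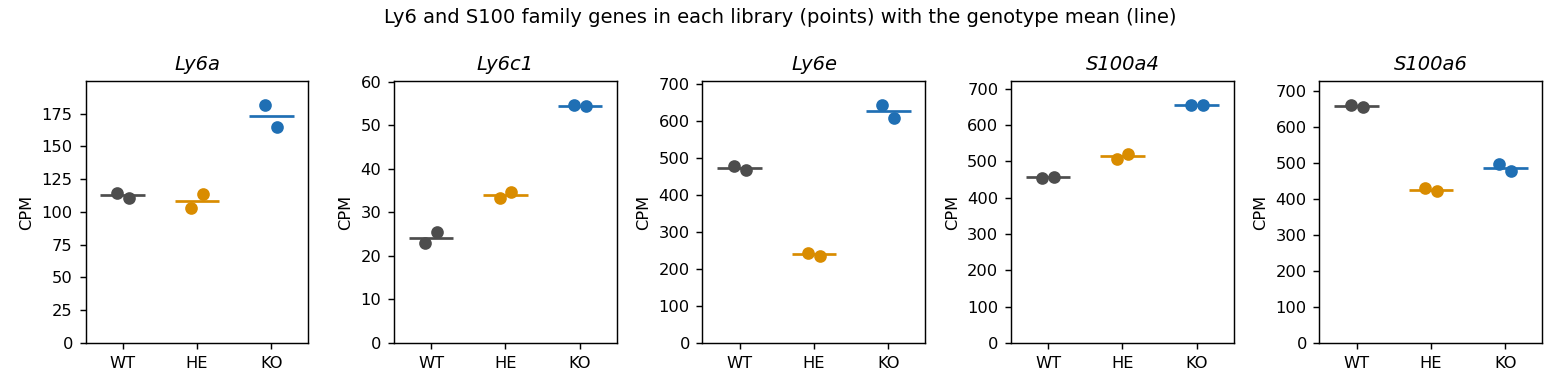
CPM (vertical axes, linear, each from 0) of Ly6a with its relatives Ly6c1 and Ly6e, and of S100a4 with its relative S100a6, per library (points) with genotype means (lines). The Ly6 genes are highest in knockout, and S100a4 and S100a6 have different orders, with S100a6 highest in wild type.

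The opposite directions of Ly6a and Thy1 in knockout show within single libraries. Per kilobase of exon, the ratio of Ly6a to Thy1 counts was 0.770 and 0.748 in wild type and 0.773 and 0.873 in heterozygous. It was 2.72 and 2.49 in knockout, where Ly6a exceeded Thy1. The ratio of Cd34 to Thy1 was 0.0304 and 0.0250 in wild type, 0.187 and 0.196 in heterozygous, and 0.127 and 0.129 in knockout. Wild type had the lowest Cd34 share relative to Thy1 in both of its libraries.

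**Figure D3:**
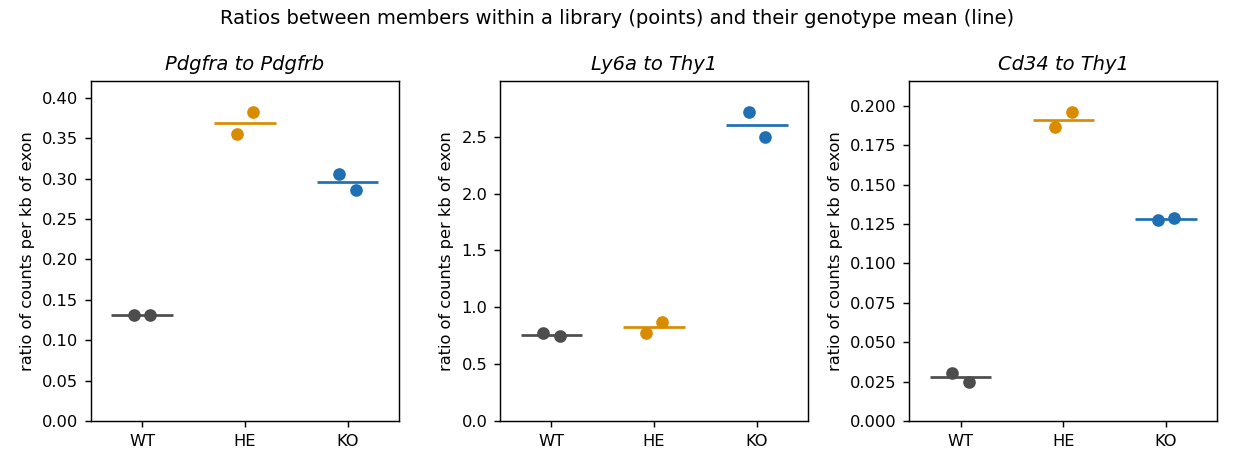
Ratio of counts per kilobase of exon (vertical axes, linear, from 0) of Pdgfra to Pdgfrb, Ly6a to Thy1 and Cd34 to Thy1 in each library (points), with genotype means (lines). Ly6a to Thy1 is between 0.748 and 0.873 in the 4 wild-type and heterozygous libraries and above 2 in both knockout libraries.

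DPP4, or CD26, is a membrane peptidase that trims chemokines such as CXCL12, and PI16 is a membrane-anchored protein of the CAP family. Both mark the progenitor-like fibroblasts of fascia and vessel walls. Dpp4 (ENSMUSG00000035000, GRCm38 chromosome 2, 62330073 to 62412231) had 0 and 3 counts in wild type, 1 and 0 in heterozygous, and 15 and 14 in knockout. A count of 0 allows up to 3 counts, or 0.0881 CPM in wild-type library 1 and 0.0943 CPM in heterozygous library 2. The knockout libraries were at 0.455 and 0.410 CPM. The pooled ratio of knockout to wild type was 9.80 (exact 95% interval 3.04 to 50.3, counting error only) and that of knockout to heterozygous was 26.2 (interval 4.35 to 1071). Both differences passed (edgeR, adjusted p = 0.0263 and 0.01), but on 29 knockout counts in all. Dpp4 passed the filter on low counts only through the knockout libraries, so these p-values and intervals are not independent support for a difference. The difference from wild type did not pass in edgeR without wild-type library 1 (adjusted p = 0.284), without knockout library 1 or 2 (adjusted p = 0.156 and 0.126), with no filter on low counts (adjusted p = 0.0874) or in DESeq2 (adjusted p = 0.0803). Over 12 alternatives its adjusted p lay between 0.0126 and 0.284. The difference from heterozygous did not pass without heterozygous library 2 (adjusted p = 0.131) or knockout library 1 or 2 (adjusted p = 0.0785 and 0.0626). There it lay between 0.00248 and 0.131 over 11 alternatives.

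Pi16 (ENSMUSG00000024011, GRCm38 chromosome 17, 29317680 to 29330593) had 61 and 45 counts in wild type, 24 and 26 in heterozygous, and 81 and 60 in knockout. The levels were 1.79 and 1.32 CPM, 0.832 and 0.817 CPM, and 2.46 and 1.76 CPM, so wild type and knockout overlapped and heterozygous lay below both. Knockout was 2.56-fold above heterozygous (log2 1.35 ± 0.40, SE, edgeR, adjusted p = 0.00656), a call that was lost without knockout library 1 (adjusted p = 0.107, range 0.00384 to 0.107 over 13 alternatives). Neither mutant passed against wild type (edgeR, adjusted p = 0.405 for knockout and 0.0736 for heterozygous).

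Relatives and a substrate of this pair were also measured. Fap, the fibroblast activation peptidase closest to Dpp4, was also low, at 1.28, 1.73 and 2.65 CPM in wild type, heterozygous and knockout, and rose by 1.05 log2 in knockout. Dpp7, a lysosomal peptidase, rose by 0.41 log2 in knockout and fell by 0.22 in heterozygous (51.1, 67.8 and 44.0 CPM in wild type, knockout and heterozygous). Cxcl12, a substrate of DPP4 and a chemokine of bone marrow stroma, was 2.15 log2 higher in knockout and 2.13 log2 higher in heterozygous than in wild type, from 358 CPM. Pi15, of the same family as Pi16, rose in both mutants, by 2.11 log2 in heterozygous and 1.15 in knockout, from 1.79 CPM. Crispld2, also of the CAP family, rose by 1.84 log2 in heterozygous, and its knockout mean of 0.918 CPM was not past the threshold against 1.40 CPM in wild type.

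VCAM1 is an adhesion molecule that binds integrins of white blood cells and is induced by inflammatory signals on endothelium and stroma. Vcam1 (ENSMUSG00000027962, GRCm38 chromosome 3, 116109949 to 116129688) had 2022 and 2099 counts in wild type, 4823 and 5735 in heterozygous, and 2693 and 2633 in knockout. On the CPM scale the values were 59.4 and 61.7, 167 and 180, and 81.7 and 77.2. No genotypes overlapped, and heterozygous stood far above the other 2. It was 2.87-fold above wild type (log2 1.52 ± 0.05, SE, edgeR, adjusted p = 9.52e-28), whereas knockout was 1.31-fold above wild type (log2 0.39 ± 0.05, edgeR, adjusted p = 1.44e-08). Knockout was at 45.7% of heterozygous (edgeR, adjusted p = 2.59e-23). Icam1, a related adhesion gene, rose by 0.12 log2 in knockout and did not pass in heterozygous (141, 154 and 143 CPM in wild type, knockout and heterozygous). Alcam, another adhesion gene of stroma, rose by 0.92 log2 in knockout and 0.13 in heterozygous (the latter not past the threshold with library totals alone), and Mcam, a marker of pericytes and marrow stroma, fell by 1.13 and 0.37 (the latter not past the threshold with RLE factors or in DESeq2). Itga4, which encodes the integrin chain that binds VCAM1, rose by 0.75 log2 in knockout and 0.49 in heterozygous, from 53.0 CPM in wild type.

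Endoglin is a co-receptor for ligands of the TGF-beta and BMP families, best known in endothelium. Eng (ENSMUSG00000026814, GRCm38 chromosome 2, 32646595 to 32682669) had 4421 and 4642 counts in wild type, 3387 and 3963 in heterozygous, and 6118 and 6017 in knockout. The levels were 130 and 137 CPM, 117 and 125 CPM, and 186 and 176 CPM, with both knockout libraries above the rest. Knockout was 1.36-fold above wild type (log2 0.44 ± 0.04, SE, edgeR, adjusted p = 3.4e-12) and 149.5% of heterozygous (edgeR, adjusted p = 1.84e-15). Heterozygous was at 90.8% of wild type (log2 -0.14 ± 0.04, edgeR, adjusted p = 0.00759), and this call was lost without wild-type library 2 or heterozygous library 1 (adjusted p = 0.117 and 0.163, range 0.000603 to 0.163 over 13 alternatives). Exons of Eng overlap those of Fpgs on the other strand by 61 bases in GENCODE M21. Since the strand setting of the counting is not given, some reads may be shared, but Fpgs had only 504 to 790 counts per library.

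Partners of endoglin mostly did not follow it. Acvrl1, the receptor kinase that pairs with endoglin, rose by 0.55 log2 in heterozygous and fell by 0.24 in knockout (41.0, 60.1 and 34.8 CPM in wild type, heterozygous and knockout). Tgfbr3, which encodes the related co-receptor betaglycan, rose by 1.34 log2 in heterozygous and 0.83 in knockout (91.1, 230.0 and 162 CPM in wild type, heterozygous and knockout). Id1 and Id3, target genes of BMP signals, fell in knockout by 1.14 and 0.74 on the log2 scale and in heterozygous by 0.82 and 0.52. Id2, of the same family, rose by 0.57 log2 in knockout and 0.19 in heterozygous, from 88.6 CPM in wild type. The ligand genes Gdf2 and Bmp10 had 0 counts in all 6 libraries. Of 17 tested genes on the list of endoglin and BMP receptor partners, 2 were higher and 10 lower in knockout (median log2 -0.22). In heterozygous 7 were higher and 5 lower (median log2 -0.011). Both are against wild type, where 38% and 38.9% of all tested genes were called. Endothelial markers summed to 43.8 to 45.3 CPM in wild type, 35.0 to 37.9 CPM in heterozygous and 78.0 to 81.6 CPM in knockout. Of 13 such markers, Cldn5 had 0 counts in all libraries and Pecam1 averaged 0.0882, 0.296 and 0.792 CPM in wild type, heterozygous and knockout. Vwf (20.4 CPM in wild type and 54.8 in knockout) and Kdr (7.33 and 18.7 CPM) rose in knockout and made up most of the sum there. The high rank of knockout in the sum rests on them. Cdh5 fell (6.54 to 0.993 CPM), and Flt1 was at 3.17 and 2.74 CPM in wild type and 0.273 and 0.176 CPM in knockout. Of 8 tested endothelial markers, 3 were higher and 3 lower in knockout than in wild type. The part of endothelial cells in the Eng result was not tested.

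S100A4 is a small calcium-binding protein of the cytosol, known as fibroblast-specific protein, although macrophages also express it. It is thus not a surface marker. S100a4 (ENSMUSG00000001020, GRCm38 chromosome 3, 90603771 to 90606045) had 15470 and 15553 counts in wild type, 14604 and 16572 in heterozygous, and 21611 and 22353 in knockout. These are 455 and 457 CPM, 506 and 521 CPM, and 655 and 655 CPM, without overlap. Of its 584 exon bases, 302 are shared with the protein-coding gene Gm42674 on the same strand in GENCODE M21. The deposited counts hold no row under the symbol Gm42674. How reads in the shared bases were assigned is not given, and the counts and level per kilobase of S100a4 depend on it. Knockout was 1.44-fold above wild type (log2 0.52 ± 0.03, SE, edgeR, adjusted p = 2.27e-21) and heterozygous 1.13-fold above it (log2 0.17 ± 0.03, edgeR, adjusted p = 3.51e-07). Of 8 tested S100 relatives, 1 was higher and 3 were lower in knockout than in wild type. In heterozygous 0 were higher and 4 lower. With 8 genes, these counts are not far from the 38% and 38.9% called over all tested genes. S100a1 rose by 0.28 log2 in knockout (41.3, 42.0 and 50.2 CPM in wild type, heterozygous and knockout). S100a6 fell by 0.44 on the log2 scale in knockout and 0.63 in heterozygous, and S100a16 by 0.80 and 0.74. Myh9, the non-muscle myosin chain that S100A4 binds, fell by 0.36 and 0.37. The gene of its receptor, Ager, had 0 counts.

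Macrophages can express several of these genes, and their markers also differed between genotypes. Of 14 tested macrophage markers, 9 were higher and 1 lower in knockout than in wild type (median log2 0.24), and 7 were higher and 3 lower in heterozygous (median log2 0.14). Knockout exceeded heterozygous for 10 and lay below it for 2. The shares of all tested genes called in these comparisons were 38%, 38.9% and 37.1%. Their summed level was 14537 to 14813 CPM in wild type, 17560 to 17679 CPM in heterozygous and 16681 to 16867 CPM in knockout. Lyz2 alone was at 7296 and 7120 CPM in wild type, 8841 and 8841 CPM in heterozygous, and 7036 and 7007 CPM in knockout. The order of heterozygous and knockout in the sum rests on this gene. Itgam and Cd68 rose by 0.61 and 0.55 log2 in knockout and Mrc1 by 1.28, whereas Cx3cr1 fell by 2.25. Lyz2, Adgre1 and C1qa did not pass in knockout (7208 and 7021 CPM, 402 and 396 CPM, and 1174 and 1197 CPM in wild type and knockout). In heterozygous Itgam and Cd68 rose by 0.31 and 0.22 log2, among the 7 macrophage markers higher there. Other macrophage markers went the other way. Cx3cr1 was at 32.7 and 32.5 CPM in heterozygous, against 140 and 139 CPM in wild type. Fcgr1 was at 56.3 and 56.5 CPM, against 68.0 and 69.8 CPM in wild type. In the same comparison S100a4 and Vcam1 rose by 0.17 and 1.52 log2, whereas Eng fell and Ly6a did not pass. Aif1 was at 0 in all libraries. The part of macrophages in the marker results was not tested.

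**Figure D4:**
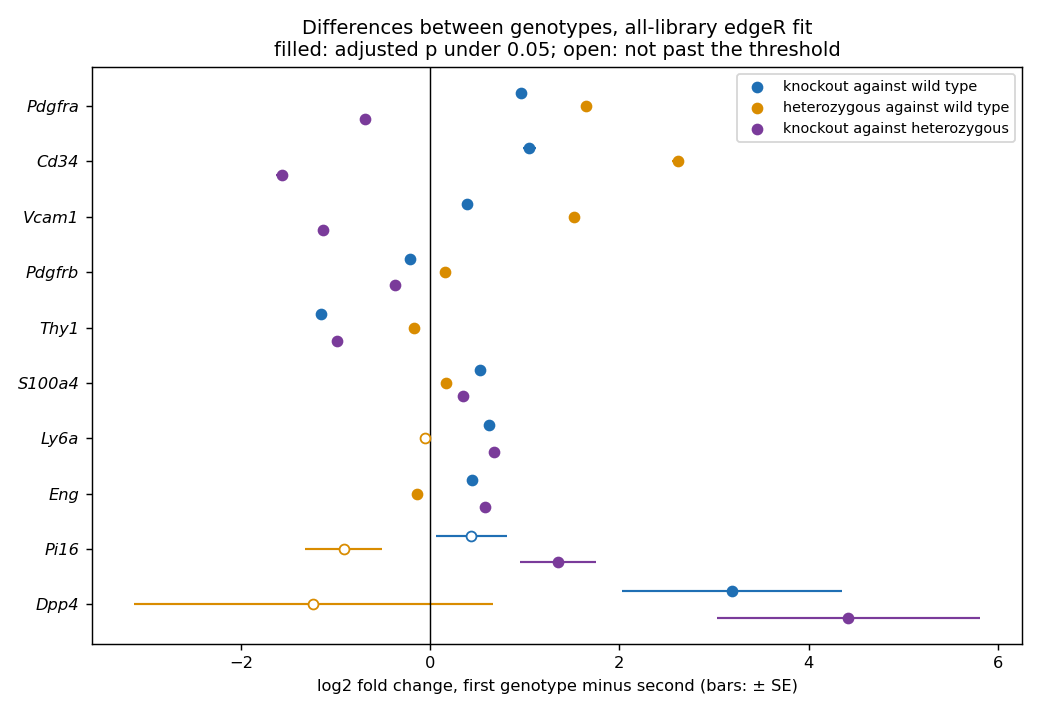
Log2 fold change (horizontal axis, first genotype minus second, bars ± SE) of the 10 markers in the 3 comparisons; filled points passed the threshold and open points did not. Cd34 reaches 2.61 in heterozygous against wild type and Thy1 -1.16 in knockout against wild type, and Dpp4 has the widest bars.

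Per kilobase of exon, S100a4 had the highest level of the 10 genes in every genotype, at 781 ± 3.62 CPM per kb in wild type (SD, n = 2). Thy1 followed in wild type at 123 ± 0.666, then Ly6a at 93.4 ± 2.40 and Pdgfrb at 71.5 ± 0.713 (SD, n = 2). Eng was at 32.9 ± 1.16, Pdgfra at 9.38 ± 0.0785, Vcam1 at 6.83 ± 0.186 and Cd34 at 3.41 ± 0.488, with Pi16 and Dpp4 below 1 (SD, n = 2). In knockout Ly6a, at 144 ± 9.80, stood in the place that Thy1 holds in wild type, and Thy1, at 55.2 ± 0.421, lay below Pdgfrb, at 61.8 ± 0.0230 (SD, n = 2). In heterozygous Thy1 again led after S100a4, at 109 ± 2.25, with Ly6a at 89.9 ± 5.89 and Pdgfrb at 79.8 ± 2.20 (SD, n = 2). Lengths are the union of exons in GENCODE M21, which may not be the annotation used for counting.

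For each marker, the genes with the most similar profile were found by the root mean square difference between centred log2 CPM values over the 6 libraries. This is a description, since genotype and library are shared by all genes. Nearest to Pdgfra were Hgf (0.040 log2), which encodes hepatocyte growth factor, Lum (0.046), which encodes lumican, and Dcn (0.070), which encodes decorin. Nearest to Thy1 were P4ha3 (0.043), a collagen prolyl hydroxylase, Cd248 (0.048), which encodes the stromal protein endosialin, and Fzd1 (0.068), a Wnt receptor. Ly6a lay closest to Atp6v0c (0.046), a proton pump subunit, B2m (0.047), the light chain of class I histocompatibility molecules, and L1cam (0.050), an adhesion molecule. For Eng they included Pkp4 (0.025) and Arhgap25 (0.026), and for S100a4 they were Tgfb1, Coro7 and Pld4 (0.020 to 0.025). Pdgfrb was matched by Ahnak, Mrgprf and Rara (0.015 to 0.023). The profiles of Vcam1 and Cd34 had less close neighbours, namely Pcsk6, Sod3 and Deptor (0.066 to 0.101) and Gas1, Ppp1r3c and Col28a1 (0.148 to 0.180). The nearest gene of Pi16 was Gbp3 (0.148), as far off as that of Cd34, and the nearest of Dpp4 was Sfrp4 (0.446).

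Other genes of fibroblast subsets were taken from further lists. On a list of 21 tested genes of adventitial fibroblasts, 9 were higher and 11 lower in knockout against wild type (median log2 -0.09), and 12 were higher and 5 lower in heterozygous (median log2 0.13). In knockout against heterozygous 5 were higher and 13 lower (median log2 -0.67). Beside these counts stand 38%, 38.9% and 37.1% of all tested genes called, in the same order. Clec3b, which encodes tetranectin, rose from 0.367 CPM in wild type to 14.0 in heterozygous and 3.97 in knockout, and Dcn rose from 114 to 341 and 200.4 CPM. Nov, a matricellular gene, rose by 0.99 log2 in heterozygous and fell by 0.73 in knockout. Fbn1 and Cd248 fell in knockout, the former by 0.90 on the log2 scale and the latter from 421 to 183 CPM, and Sema3c fell by 1.58. In the heterozygous libraries Fbn1 was 0.06 log2 above and Cd248 0.16 below wild type, both past the threshold, the former not with library totals alone.

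Of 25 tested pan-fibroblast and other surface genes, 18 were lower and 4 higher in knockout against wild type (median log2 -0.47), and 11 were lower and 8 higher in heterozygous (median log2 -0.14). Col1a1, Col1a2 and Col3a1, the fibrillar collagen genes, fell in knockout by 0.97, 0.68 and 0.47 on the log2 scale and rose in heterozygous by 0.16, 0.22 and 0.55. Penk, which encodes an opioid precursor, rose by 1.65 log2 in heterozygous and fell by 1.60 in knockout, from 107 CPM in wild type. Tcf21 had 0 counts in all libraries. Among 20 genes of bone marrow and skeletal stroma, 9 were higher and 9 lower in knockout (median log2 0.04). In heterozygous 8 were higher and 6 lower (median log2 0.09). For both lists, the share called over all tested genes against wild type was 38% in knockout and 38.9% in heterozygous. Kitl, the stem cell factor gene, rose by 1.85 and 1.77 log2 in knockout and heterozygous and Grem1, a BMP antagonist, by 2.67 and 1.56, while Nes, which encodes nestin, fell by 1.95 and 1.92. The direction of the fibroblast markers in knockout thus differed from gene to gene, with Pdgfra, Cd34, Dcn and Clec3b higher and Thy1, Cd248, Col1a1 and Fbn1 lower.

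The remaining lists are given by their counts against wild type. For comparison, 38% of all tested genes were called in knockout, 19.2% higher and 18.9% lower. In heterozygous 38.9% were called, 19.2% higher and 19.7% lower. Of 29 tested relatives of the markers, 15 were higher and 6 lower in knockout (median log2 0.28), and 7 were higher and 10 lower in heterozygous (median log2 -0.032). Of 20 tested ligands and partners of the markers other than the PDGF receptors and endoglin, 5 were higher and 8 lower in knockout (median log2 -0.041), and 7 were higher and 9 lower in heterozygous (median log2 -0.15). Lists of other cell types had few tested genes. At 33.3% called, Schwann cell and neuron markers in heterozygous and lymphocyte and blood progenitor markers in knockout lay below the share of all tested genes. Endothelial markers had 3 higher and 3 lower of 8 in knockout and 1 and 3 in heterozygous, and pericyte and mural markers 3 and 3 of 9, then 3 and 2. Schwann cell and neuron markers had 0 higher and 3 lower of 6 in knockout and 2 and 0 in heterozygous. Nucleus pulposus and notochord markers had 1 and 2 of 6 in knockout and 2 and 3 in heterozygous, and lymphocyte and blood progenitor markers 0 and 1 of 3, then 2 and 0.

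**Figure D5:**
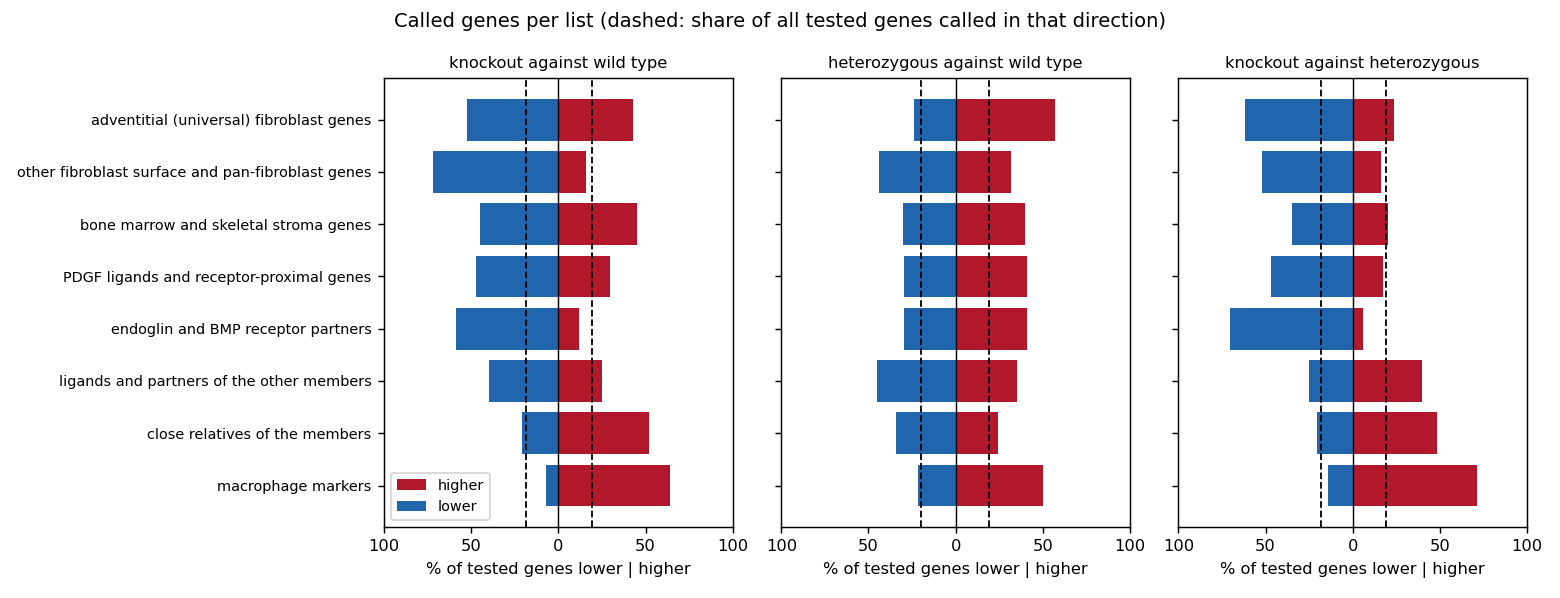
Share of the tested genes of 8 lists (horizontal axis, percent) that were lower (left) or higher (right) in each comparison, with dashed lines at the share of all tested genes called in that direction. Pan-fibroblast genes were lower in 18 of 25 in knockout against wild type, and macrophage markers higher in 9 of 14.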

How the data were processed

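RNA sequencing libraries of total RNA were made from 6 cultures of nucleus pulposus cells, 2 per genotype. The authors deposited raw counts per gene symbol (whole numbers whose totals differ between libraries), and columns were matched to libraries by title. Per the submitters' processing notes, HISAT2 version 2.0.4 and GRCm38 were used. The sources used here do not state how reads were counted, on which annotation and with which strand setting. Rows naming no gene numbered 0.

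Counts were tested with edgeR version 4.0.16 (R 4.3.3): TMM scaling, the default filter by group with Chsy3 kept (16061 genes), and 1 robust quasi-likelihood fit of all libraries with 3 residual degrees of freedom. Tests were two-sided, with Benjamini-Hochberg adjustment over all tested genes and a threshold of 0.05. The fit was also run on counts simulated with the spread of these same libraries. Such a run cannot show whether that spread is technical. CPM use scaled library sizes, and log2 CPM a prior count of 2.

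The 10 genes and 13 further lists were chosen with earlier results of these data known. Genes named from a list are among its 4 with the smallest p in a comparison, those at 0, or relatives and partners of a marker. Xist, Ifi202b, Ndufa4l2 and some markers of other cell types that this rule does not cover were named after their values were seen. Nearest genes (3 per marker) had a mean of at least 3 log2 CPM and no predicted or clone name. Some genes are on more than 1 list. Alternatives were RLE factors, library totals, DESeq2 version 1.42.0, no and a stricter filter (mean of at least 1 CPM), only the 4 libraries compared, the replicate number as a block, leaving out each library, and a prior count of 0.5. Some genes that these rules and lists name are not reported here.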

Additional observations from a re-analysis of the deposited data

How the results depend on the processing

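Over 13 alternatives, the 27 differences of the 9 markers other than Dpp4 kept their direction except for Ly6a in heterozygous against wild type. That value, not past the threshold, was 0.013 log2 without heterozygous library 1 and lay between -0.13 and 0.013 over the libraries left out. Without wild-type library 2 the Dpp4 difference between heterozygous and wild type, which rests on 4 counts, was 2.40 log2, and it lay between -3.68 and 2.40 over the libraries left out. Both settings hold fewer libraries, and the cause was not tested further. Leaving out 1 library gave 5064 to 6261 called genes and 8 to 9 called markers in knockout against wild type, 5186 to 6228 and 6 to 7 in heterozygous against wild type, and 4823 to 6057 and 8 to 10 in knockout against heterozygous. Where this leaves 1 library in a genotype, that library is assumed to vary like the others. Replicate numbers are shared by the genotypes, but the labels do not say that they pair libraries, and deviations from the genotype means correlated at -0.025 to 0.022 between genotypes. With the number as a replicate block 6080, 6222 and 5913 genes and 9, 7 and 10 markers were called, and no call of a marker changed. RLE factors and library totals changed no call of a marker either, and moved the median of all genes by at most 0.064 log2. Among genes of the other lists, library totals ended 2 of 137 calls in knockout against wild type, 6 of 126 in heterozygous against wild type and 7 of 127 in knockout against heterozygous, with 0 changes of direction. The stricter filter removed Dpp4, as did the filter in the fit of only the wild-type and heterozygous libraries, and DESeq2 gave it no adjusted p in knockout against heterozygous. With a prior count of 0.5, 2 of the 3 nearest genes of Dpp4 and of Pi16 were the same, and all 3 for the other markers. Depth limits Dpp4 and Pi16, with at most 15 and 81 counts per library.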
